A study of Saccharomyces cerevisiae with 2 samples.

Results

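A set of 10 genes of cell wall glucan was followed in a Saccharomyces cerevisiae msn2/4 mutant treated with zymolyase, a mix of glucan-digesting enzymes used to break down the yeast wall. They were taken by name: the glucan synthase genes FKS1 (YLR342W) and GSC2 (YGR032W), KRE6 (YPR159W), the glucan elongase genes GAS1 (YMR307W) and GAS5 (YOL030W), BGL2 (YGR282C), EXG1 (YLR300W), the crosslinking enzyme genes CRH1 (YGR189C) and UTR2 (YEL040W), and SCW4 (YGR279C). Of these 10, among 6207 genes in the table, 9 had a row, 7 had a ratio on both arrays, and FKS1 and KRE6 had one on array 1 alone. GAS1 was not analysed here.

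Msn2 and Msn4, for which the mutant is named, are transcription factors of the general stress response, and both conditions carried the mutant. The treated part of the culture grew in rich medium at 24 °C with 5 units of zymolyase per ml and was collected at 3 hours. By the design text, the untreated part came from the same culture and was collected likewise. Total RNA of both parts was hybridised together on 2 two-colour arrays, with zymolyase RNA in Cy3 on array 1 and in Cy5 on array 2. MSN2 and MSN4 had no ratio on either array, so the strain could not be checked from them, and a wild-type strain was not analysed here.

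The wall of budding yeast rests on a network of beta-1,3-glucan, made at the plasma membrane by a synthase whose alternative catalytic subunits are Fks1 and Gsc2 (Fks2) and whose activator is the GTPase Rho1. A shorter beta-1,6-glucan, which needs Kre6, ties mannoproteins to that network. Outside the membrane Gas proteins lengthen glucan chains, glucanases and transferases such as Bgl2, Exg1 and Scw4 trim or rejoin them, and Crh1 and Utr2 attach chitin to glucan. Damage to the wall is sensed by the cell wall integrity pathway, which ends in the MAP kinase Slt2 and is known for raising transcripts of several of these enzymes.

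Each value is a log2 ratio of the 2 RNAs, and its direction is not settled by the labels. The sign of array 2 was turned, so that both arrays run the same way, because wall genes outside this set mostly have opposite signs in the deposited columns. After the turn 14 of 15 cell wall proteins and 5 of 5 genes of the cell wall integrity pathway had the same sign on both arrays, but 39.8% of all genes did. This choice was made with the values known, and across all genes the turned arrays did not correlate positively (Spearman's rho = -0.31), so the turn remains an assumption. Without the turn that rho has the same size and is positive. The deposited array 2 column also holds ratios that were already inverted, as described under processing. Whether that inversion aligned the arrays or opposed them is unstated. SLT2, for example, had 4.08 on array 1 and 2.00 on array 2 after the turn, and KDX1, a pseudokinase related to Slt2, had 3.96 and 3.48. Positive ratios are then likely zymolyase over untreated, since published work reports such genes as raised by zymolyase. The direction is likewise assumed, CRH1 itself being one of the genes such work names. By the design text, the 2 arrays are a dye swap of 1 treated and 1 untreated extract, so no test was possible. Every SD is then over 2 hybridisations (n = 2 arrays, technical) and leaves out the spread between cultures. The sample text names several cultures instead, and which holds for these arrays is not settled. Precision is limited by this number of arrays, and the signal behind each ratio is unknown.

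With the turn, 3 of the 7 genes measured on both arrays were at least 2-fold positive, namely CRH1, EXG1 and BGL2, and none was at least 2-fold negative. A gene was counted when its mean ratio reached 2-fold with the same sign on both arrays. By that rule 2.88% of all 2254 genes measured on both arrays were positive and 13.6% were negative. The 7 means ran between -0.39 and 2.35 with a median of 1.09, against an all-gene median of -0.37. All 7 but UTR2, at -0.39, lay above the all-gene median. Array 1 carried the positive median: over the same 7 genes it was 1.89 on array 1 and -0.09 on array 2.

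**Figure D1:**
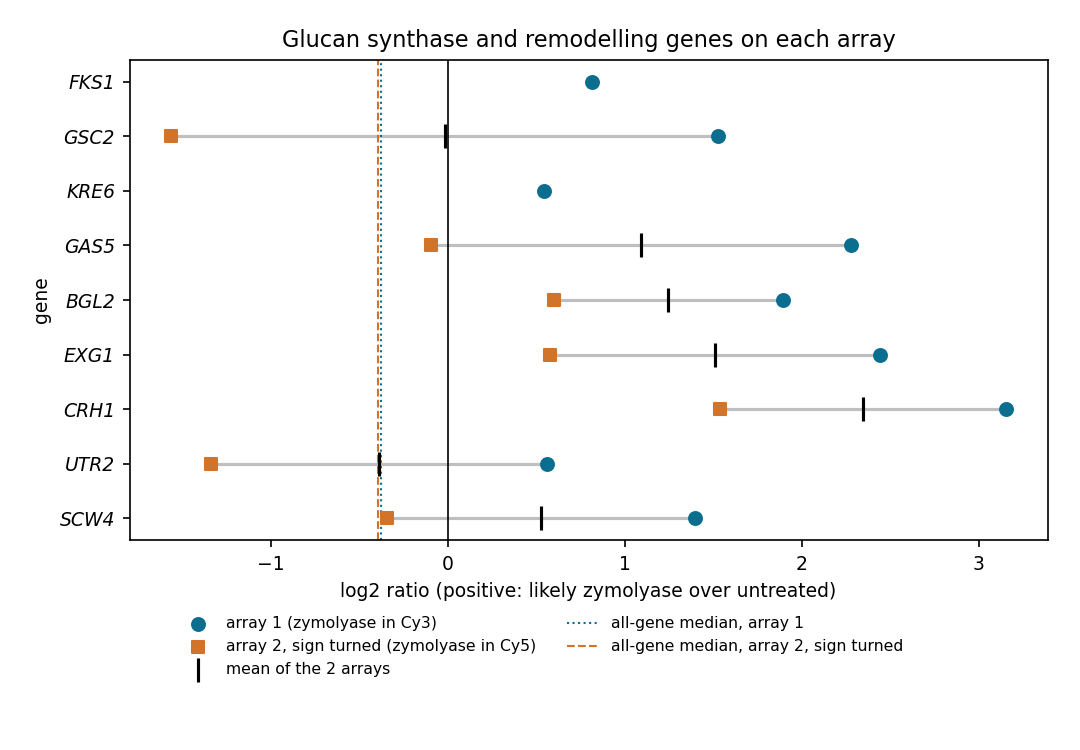
Log2 ratio (horizontal axis) of the 9 glucan genes with a row, on array 1 (circles), on array 2 with its sign turned (squares) and as the mean of the 2 arrays (vertical marks), with the all-gene medians as dotted and dashed lines. CRH1 lies farthest right on both arrays, every gene lies above 0 on array 1, and on array 2 GSC2, GAS5, UTR2 and SCW4 lie below 0.

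Among the synthase genes, GSC2, the subunit known for its induction under wall stress, had 1.53 on array 1 and -1.56 on array 2. The 2 ratios were of nearly equal size and opposite sign, so the mean was -0.02 ± 2.19 and gave no direction. FKS1, the subunit used in vegetative growth, had 0.81 on array 1 (1.76-fold) and no ratio on array 2. On array 1, where both subunits could be compared, GSC2 was 0.72 above FKS1 on the log2 scale. The 2 genes are close paralogs, and cross-hybridisation between their spots cannot be told apart from signal of their own. KRE6, needed for beta-1,6-glucan, had 0.54 on array 1 (1.46-fold) and no ratio on array 2. Both single ratios lay above the array 1 median of -0.38, at percentile 83.5 for FKS1 and 75.7 for KRE6, but neither has a second hybridisation to set it against.

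GAS5, which encodes a GPI-anchored glucanosyltransferase that elongates beta-1,3-glucan, had 2.28 on array 1 (4.85-fold) and -0.09 on array 2. Its mean was 1.09 ± 1.68. The mean passed 2-fold, but the signs differed, and the gene was not counted. Array 2 placed it near no difference, at percentile 62.5 of the genes measured there. GAS3, a relative in the same family, had 0.50 on array 1 and -0.82 on array 2, so that GAS5 was the higher on both arrays, by 1.78 and 0.72. With array 2 as deposited the second gap is -0.72, and GAS5 is the lower there. GAS2 had 0.09 on array 2 alone, and GAS4 had no ratio; in S. cerevisiae both are known from spore wall formation.

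The secreted glucanases and transferases were positive on array 1 and smaller on array 2. EXG1, the main exo-beta-1,3-glucanase of the wall, had 2.44 on array 1 (5.43-fold) and 0.58 on array 2 (1.49-fold), a mean of 1.51 ± 1.32 (2.85-fold). BGL2, an abundant wall endoglucanase and glucan transferase, had 1.89 (3.71-fold) and 0.60 (1.51-fold), a mean of 1.25 ± 0.92 (2.37-fold), with the smallest SD of the 7 genes. Neither gene reached 2-fold on array 2. EXG1 and BGL2 could not be ordered: EXG1 was 0.55 above BGL2 on array 1 and 0.02 below it on array 2. SCW4, a soluble wall protein of the same glucanase family as Bgl2, had 1.40 on array 1 and -0.34 on array 2, a mean of 0.53 ± 1.23. BGL2 was above SCW4 on both arrays, by 0.49 and 0.94; with array 2 as deposited the second gap is -0.94. SCW10, the close relative of SCW4, had no ratio, and neither had the exoglucanase genes EXG2 and SPR1.

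The widest split lay within the crosslinking enzymes. CRH1, whose product transfers chitin onto glucan, had 3.15 on array 1 (8.90-fold) and 1.54 on array 2 (2.90-fold), a mean of 2.35 ± 1.14 (5.09-fold). It was the 1 member at least 2-fold on each array and stood at rank 17 of the 2254 genes. UTR2, which encodes a GPI-anchored enzyme of the same family and activity, had 0.56 on array 1 and -1.34 on array 2, a mean of -0.39 ± 1.34, at percentile 48.1 of all genes. CRH1 was above UTR2 by 2.59 on array 1 and 2.88 on array 2, a mean gap of 2.74 ± 0.20. A gap between genes on the same array is free of that array's centring, and this one varied less between the hybridisations than either gene's own ratio. That also held for the gaps of BGL2 to SCW4 (SD 0.32), EXG1 to BGL2 (0.40) and GAS5 to GAS3 (0.75). All of these genes were higher on array 1 than on array 2, and a gap cancels the shift that its genes share. The smaller SDs follow in part from that arithmetic and are not separate agreement between the arrays. The gap of CRH1 to UTR2 is free of a dye effect only as far as both genes share it, which was not tested. With array 2 as deposited this gap would be -2.88 on that array. CRR1, the third gene of the family and known from spore wall assembly, had -0.27 on array 2 alone.

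The arrays ranked the 7 genes in a similar order while differing in level. On array 1 the order, high to low, was CRH1, EXG1, GAS5, BGL2, GSC2, SCW4 and UTR2, and on array 2 it was CRH1, BGL2, EXG1, GAS5, SCW4, UTR2 and GSC2. Spearman's rho between the arrays was 0.79 over the 7 genes and 0.66 over 6 without CRH1, against -0.31 over all 2254 genes. The genes share both extracts, and the sign of each rho follows from the turn. The other wall lists used below gave 0.55 to 0.90 over 5 to 15 genes each.

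**Figure D2:**
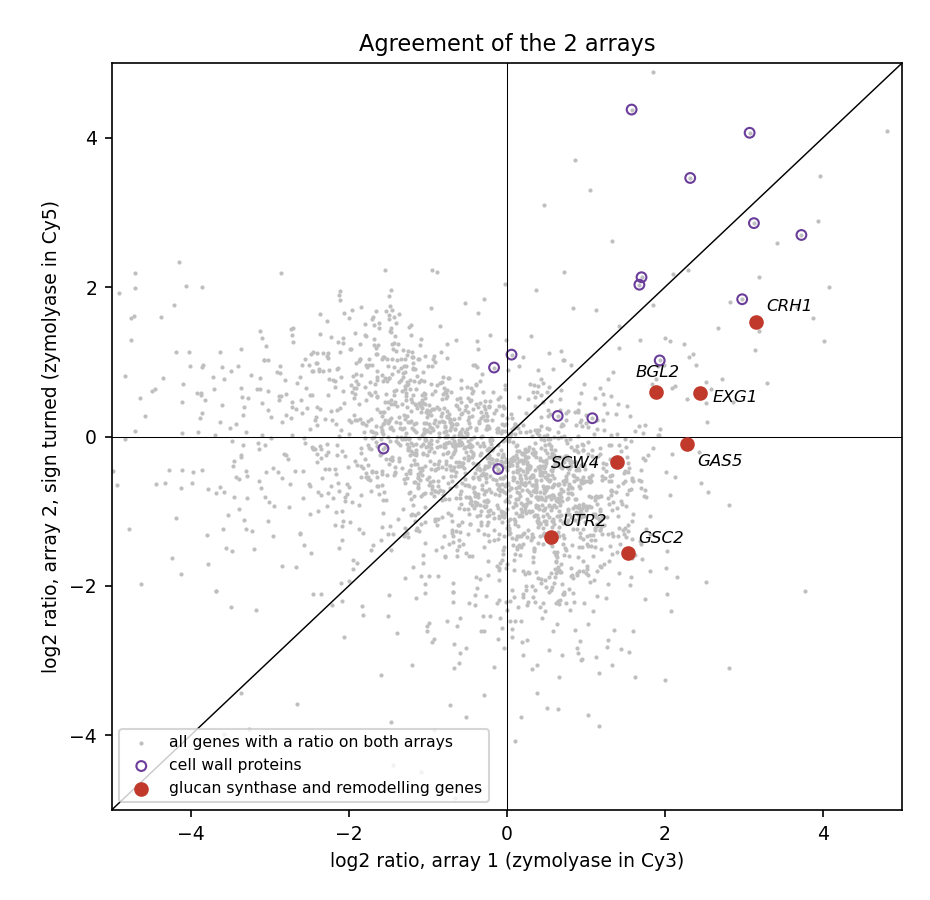
Log2 ratio on array 1 (horizontal axis) against array 2 with its sign turned (vertical axis) for all genes with both ratios (grey), cell wall proteins (open circles) and the 7 glucan genes (red), with the line of equal ratios; 48 genes beyond 5 on either axis are not drawn. All 7 glucan genes lie below the line, whereas cell wall proteins lie on both sides of it.

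Each of the 7 glucan genes measured on both arrays had the higher ratio on array 1. The gap between the arrays ran from 1.29 for BGL2 to 3.09 for GSC2, and none of the 7 had arrays within 1 of each other, whereas 35.8% of all genes did. The half-difference, array 1 minus turned array 2 divided by 2, holds, if the turn is right, the dye effect that the mean cancels together with hybridisation error, which the mean does not cancel. By arithmetic the half-difference is the same number as the mean of array 1 and the deposited array 2. It was positive for 7 of 7 glucan genes with a median of 0.93 and a range of 0.65 to 1.55. Across all genes 52.3% were positive and the median was 0.07. GSC2 stood at percentile 96.9 of all half-differences, GAS5 at 91.1, and the other 5 between 73.8 and 84.7. Array 1 thus had 6 of 9 glucan genes at least 2-fold positive, where 12.2% of its 2428 genes were, and array 2 had 1 of 7, where 9.29% of its 2918 genes were. At least 2-fold negative on array 2 were GSC2 and UTR2, 2 of 7, against a background of 25.9%.

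The half-difference moved with gene length across the genome (rho = 0.46 over 2174 genes with a length in the RefSeq table), whereas the mean did not (rho = 0.03). On array 1 the ratio rose with length (rho = 0.27 over 2339 genes), and on turned array 2 it fell (rho = -0.46 over 2820 genes). The small rho of the mean thus holds only with the turn. Without it, the rho of the mean is the 0.46 of the half-difference. GSC2 and FKS1, at 5688 and 5631 bases, lie at percentile 99.2 and 99.1 of gene length in the table, and the other 7 with a row span 942 to 2163 bases. After the running median of genes of like length was subtracted on each array, GSC2 had 1.92 on array 1 and -0.86 on array 2, a mean of 0.53, and still opposed itself. GAS5 became positive on both arrays (2.12 and 0.71), and 4 of 7 genes then passed the rule: CRH1 at 2.58, EXG1 at 1.79, BGL2 at 1.68 and GAS5 at 1.41. The all-gene count rose as well, from 65 of 2254 positive to 116 of 2174. UTR2 stayed near 0 at -0.10. Centring each array on its median, with no length term, passed the same 4 genes, with GAS5 at 2.66 and 0.30. Of all genes, 122 of 2254 were then positive. The part of probe length or dye in these gaps was not tested.

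Read without the turn, the same numbers give another picture. The means of array 1 and the deposited array 2 were then 1.55 for GSC2 (2.92-fold), 1.19 for GAS5 (2.28-fold), 0.95 for UTR2, 0.93 for EXG1, 0.87 for SCW4, 0.81 for CRH1 and 0.65 for BGL2. GSC2 and GAS5 were the 2 of 7 counted as positive, where 12.3% of all genes were. No gene was counted under both readings, which follows from the rule, since it asks for equal signs. In that reading CRH1 lay within the range of the other members, and its deposited ratios, 3.15 and -1.54, opposed each other. The median of the 7 was 0.93 in that reading, against an all-gene median of 0.07, and 1.09 with the turn, while the genes counted differed. Both readings hold the same array 1 ratios, positive for all 7 genes, so the shared sign of the 2 medians is not a separate result.

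A list of 36 other genes of glucan synthesis and remodelling, chosen with earlier results of these data known, had 15 genes with a ratio on both arrays, 5 with a ratio on 1 and 16 with none. None of the 15 was at least 2-fold positive and 4 were at least 2-fold negative, where 2.88% and 13.6% of all genes were. The median of the 15 was -0.29, against an all-gene median of -0.37. All 4 were 2-fold on 1 array alone. SCW11, a glucanase-like wall protein of daughter cell separation, had -2.94 and -0.93, a mean of -1.94 ± 1.42. DSE4, the endoglucanase that acts at the daughter side of the septum, had -2.02 and -0.63, a mean of -1.33 ± 0.99. SMI1, whose product (also named Knr4) is a regulator linked to glucan synthesis and to Slt2, had -0.92 and -2.71, a mean of -1.81 ± 1.27, and SUN4, of the SUN family of septation proteins, -0.38 and -2.03, a mean of -1.20 ± 1.16. The highest means of the list were those of UTH1 at 0.89 ± 0.45 and SIM1 at 0.79 ± 0.68, both of the SUN family, named after their values were seen. RHO1, the synthase activator, had 1.22 and 0.22, a mean of 0.72 ± 0.71. Its exchange factor gene ROM1 had -2.10 and 0.09, a mean of -1.004 ± 1.55, and SAC7, which encodes a GTPase-activating protein of Rho1, had 0.25 and -1.34, a mean of -0.55 ± 1.13; both were also named after their values were seen. ROM2, the paralog of ROM1, FKS3, the third synthase-like gene, and SKN1, the relative of KRE6, had no ratio.

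**Figure D3:**
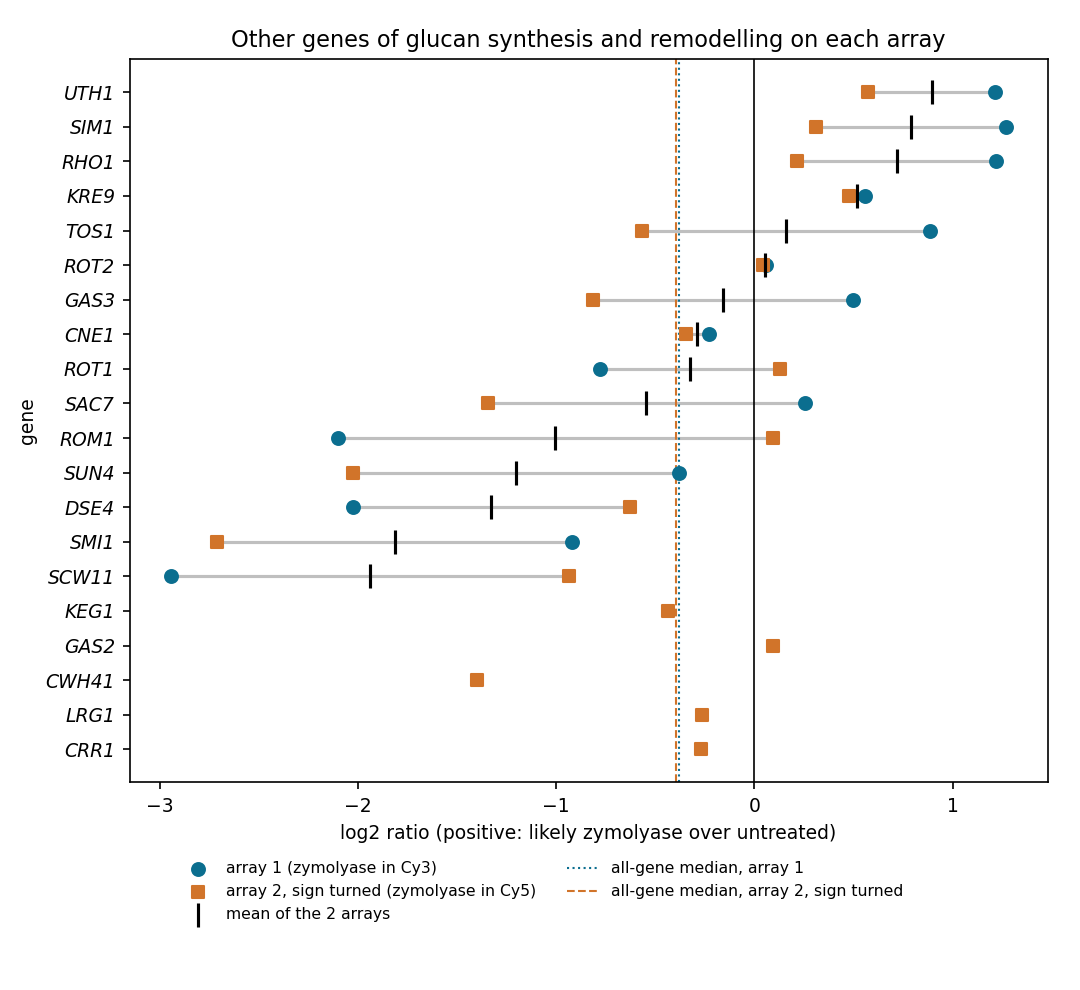
Log2 ratio (horizontal axis) of the 20 other glucan genes with a ratio, on array 1 (circles), on array 2 with its sign turned (squares) and as the mean (vertical marks); lines are the all-gene medians. UTH1, SIM1, RHO1, KRE9 and ROT2 lie above 0 on both arrays, and SCW11, SMI1, DSE4 and SUN4 reach farthest left among genes negative on both.

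Some of these genes are neighbours in the RefSeq assembly R64. SCW10, FKS3 and GAS1 follow one another on chromosome XIII, and the 2 of them analysed gave no ratio. SCW11 is next to CWH41, a glucosidase gene of glycoprotein processing needed for normal beta-1,6-glucan, which had -1.40 on array 2 alone.

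Other wall lists are given beside the glucan set with the turn and then without it, and no difference between lists was tested. The wall proteins and pathway genes were used to choose the turn and the direction. Their positive counts and medians with the turn therefore follow in part from that choice. Of 15 cell wall proteins measured on both arrays 9 were at least 2-fold positive, and YPS3, a surface aspartyl protease, had 3.57 ± 0.70, PIR3, a repeat-containing wall protein, 3.21 ± 0.73, and SED1, a GPI wall protein, 2.99 ± 0.19. Of 5 genes of the cell wall integrity pathway 3 were positive, namely KDX1 at 3.72 ± 0.34, SLT2 at 3.04 ± 1.47 and the sensor gene MID2 at 1.10 ± 0.34, while RLM1, the transcription factor under Slt2, had no ratio. Of 8 chitin genes 3 were positive, led by GFA1, the first enzyme of the chitin precursor route, at 2.64 ± 1.93, then PCM1, of the same route, at 1.67 ± 1.02, and CHS7, which helps a chitin synthase leave the endoplasmic reticulum, at 1.40 ± 1.03. The median mean ratio was 1.09 for the glucan genes, 1.85 for wall proteins, 1.10 for the pathway and 0.05 for chitin genes. Without the turn these medians were 0.93 for the glucan genes, -0.18 for wall proteins, 0.24 for the pathway and 0.61 for chitin genes, so the order of the lists depends on it. The positive counts without the turn were 2 glucan genes, no wall protein, no pathway gene and 1 chitin gene. Half-differences were positive for 7 of 7 glucan genes, 5 of 5 pathway genes, 6 of 8 chitin genes, 11 of 15 other glucan genes and 7 of 15 cell wall proteins, with medians of 0.93, 0.24, 0.61, 0.32 and -0.18 in that order. These are the same numbers as the means without the turn, so they add no further result.

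**Figure D4:**
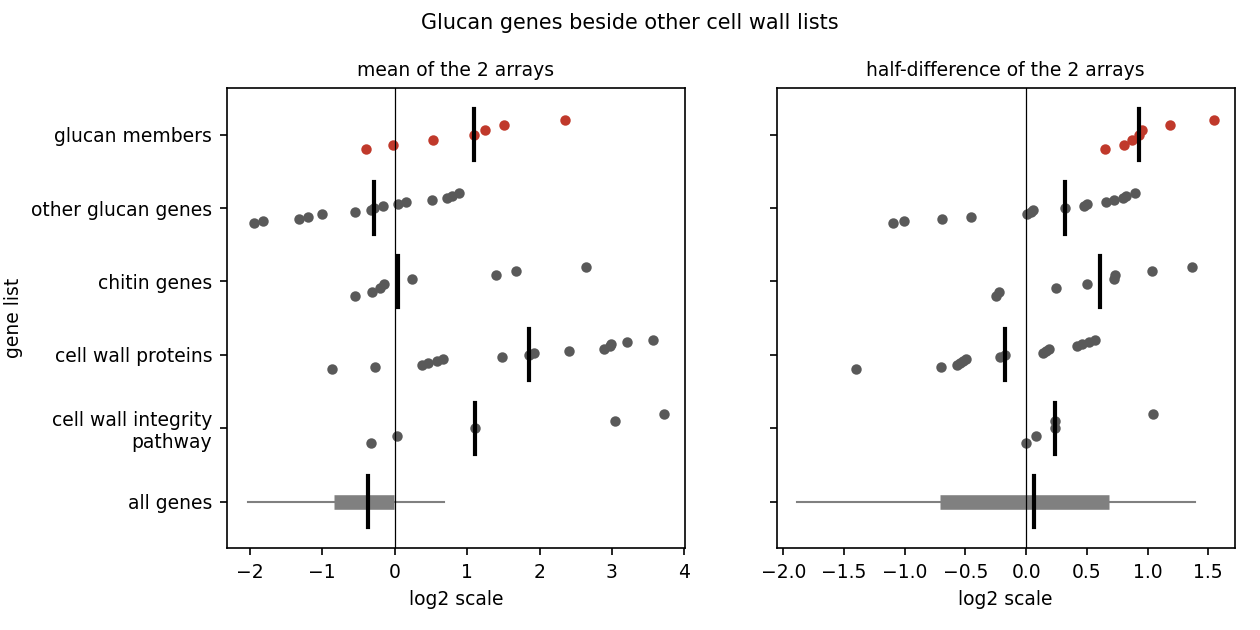
Mean (left) and half-difference (right) of the 2 arrays on the log2 scale, with a point for each gene and a bar at the median of each list; for all genes the thick bar spans the percentiles 25 to 75 and the thin line 5 to 95. The glucan genes span -0.39 to 2.35 in the mean and lie wholly between 0.65 and 1.55 in the half-difference; the pathway genes also lie above 0 there, and cell wall proteins centre on -0.18.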

How the data were processed

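The deposited table holds at most 1 log2 ratio per gene and array, with 2254 genes valued on both, 838 on 1 and 3115 on none; per the labels, the arrays are two-colour hybridisations of total RNA labelled by reverse transcription. The authors' correction, normalization and filter behind the log2 values, and the numerator, are not given in the sources used here. Scale was taken from the values: all 387 array 1 values below -2, and all 239 of array 2 after the turn, are log2 of whole multiples of 0.0001 within the rounding to 4 decimals. As deposited, 3 of the 40 array 2 values below -2 are, so that column holds inverted ratios; whether the inversion aligned the arrays or opposed them is unstated. Centring is unstated; the deposited columns have medians of -0.38 and 0.40, and no recentring was applied. The design text gives 1 culture, the sample text several; the first was followed.

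The 2 control spots were left out, and 5654 of 6207 names matched RefSeq R64 (symbols, lengths, gene order). Coordinates are left out, the build of the array probes being unstated. Mean, SD and half-difference were computed with pandas 2.3.3 in Python 3.11.15. The call rule was run on simulated data whose changes exceeded every member's mean, so that run says nothing on changes near the limit. Members, lists, tests and the turn of array 2 were chosen with earlier results of these data known. The genes named are all members, list genes counted under the 2-fold rule (up to 3 in comparison lists), paralogs of members and regulators of the synthase, and SLT2, RLM1, MSN2 and MSN4; CWH41, ROM1, SAC7, UTH1, SIM1 and the genes a caption names were added after their values were seen. Alternatives were centring, subtraction of a running median over 201 genes of like length, array 2 as deposited, every sign turned, each array alone, and other limits.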

Additional observations from a re-analysis of the deposited data

How the results depend on the processing

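No paired analysis was possible because each array holds both conditions and, by the design text, the arrays share 1 pair of extracts. The members' count at least 2-fold positive (3 of 7) was 4 after centring and after length subtraction, and 2 with array 2 as deposited. It was 1 with 2-fold on each array and 0 with every sign turned, again of 7 genes. From 1 array alone it was 6 of 9 on array 1 and 1 of 7 on array 2. All-gene counts for these settings are given below. Their negative count (0 of 7) was 3 with every sign turned. From 1 array alone it was 0 of 9 on array 1 and 2 of 7 on array 2. Their median (1.09) was -1.09 with every sign turned and 1.48 after centring. From array 1 alone it was 1.53 over 9 genes, and from array 2 alone -0.094 over 7. No member was left among genes whose arrays differ by at most 1, so that setting gave no value for them. With array 2 as deposited the mean of CRH1 was 0.81, the 1 member mean of 7 that moved by more than its SD. That does not mark CRH1 as the least stable, since the SD is wide where the turned arrays oppose each other. GSC2 moved from -0.02 to 1.55 with an SD of 2.19, and UTR2 from -0.39 to 0.95 with an SD of 1.34. From 1 array alone a mean of 2 cannot move by more than its SD, so that comparison says nothing on stability: GAS5 was -0.09 to 2.28 and GSC2 -1.56 to 1.53.

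For other glucan genes the positive count (0 of 15) was 3 after centring and at 1.5-fold, 2 after length subtraction and 4 with every sign turned. From 1 array it was 3 of 15 on array 1 and 0 of 20 on array 2. The negative count (4 of 15) was 2 after centring and after length subtraction, and 1 with array 2 as deposited. It was 0 with every sign turned, with 2-fold on each array and among the 6 genes whose arrays agree within 1. From 1 array it was 3 of 15 on array 1 and 4 of 20 on array 2. For all 2254 genes measured on both arrays (65 positive, 307 negative) the counts were 122 and 161 after centring. After length subtraction they were 116 and 155 of 2174. They were 277 and 309 with array 2 as deposited, and 307 and 65 with every sign turned. At 1.5-fold they were 109 and 515, and with 2-fold on each array 38 and 104. Among the 806 genes whose arrays agree within 1 they were 21 and 90. From 1 array alone they were 297 and 859 of 2428 on array 1, and 271 and 757 of 2918 on array 2. The cause was not tested.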

Other observations

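The table also holds 2 control spots, left out of every count. The spot named Arabidopsis had -1.15 on array 1 and, with the sign turned, -3.27 on array 2, and the buffer spot named 3XSSC had 0.12 and -0.53. What RNA, if any, the first was meant to report is not stated in the labels.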
